A study of Malus domestica with 18 samples.

Results

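GDSL esterase/lipase genes encode secreted plant enzymes that cut or form ester bonds, and 8 of them were followed here in the skin of "Golden Delicious" apple. They were taken by gene ID from a deposited table of 2856 genes, and all 8 are described there as GDSL esterase/lipase. The table describes 13 further genes in this way. The study asked how a bag changes the russeting of the fruit skin. Unbagged fruit (CK) and fruit put into light-proof paper bags at DAF20, that is 20 days after flowering (T), were sampled at DAF30 (CK1 and T1), DAF60 (CK2 and T2) and DAF150 (CK3 and T3). Each of the 6 groups had 3 RNA-seq libraries, 18 in all, each made from the mixed peel of several fruits. All fruit came from trees of a single cultivar in a single orchard, and the sources do not say whether T and CK, or the 3 stages, shared trees. Values are FPKM, a fragment count per gene divided by gene length and by library size, so levels can be compared between genes per length.

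The family is named after a short glycine, aspartate, serine and leucine motif that holds the active serine. In plants, some GDSL enzymes link hydroxy fatty acids into cutin, the polyester of the cuticle on the epidermis. Others, in the Arabidopsis root, act on suberin, the polyester that waterproofs cork and endodermis. Russeting replaces the cuticle and epidermis of an apple by cork, so both polymers belong to the tissue sampled. The annotation also placed all 8 genes in the glycerolipid and phenylpropanoid pathways, under the same pair of enzyme entries (a phospholipid:diacylglycerol acyltransferase and the ubiquitin ligase UBR4), so it did not separate them.

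The table holds only genes that the authors had called between all T and all CK libraries. A change between T and CK in any of the 8 genes is therefore no independent evidence of its direction, and the adjusted p-values hold among the selected genes alone. The stage comparisons within CK and within T were not the contrast used, but their libraries entered it, so they are not independent of the selection. Of the 2856 genes, 1399 reached 1 FPKM in at least 3 libraries and were tested, among them all 8. The number of fragments behind an FPKM is unknown, so no counting interval could be given, and values near the last deposited decimal (0.01) carry little precision.

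On the GDDH13 v1.1 genome, MD00G1116600 (named after Arabidopsis At5g37690) lies on unplaced sequence, listed as chromosome 0, from 24664315 to 24666587 on the minus strand. MD02G1161000 (At2g23540-like) lies on chromosome 2 from 13498378 to 13500849, and MD06G1194000 (At1g74460-like) on chromosome 6 from 32892889 to 32894585, both on the plus strand. The Arabidopsis genes behind these 3 names belong to the GDSL set tied to root suberin. MD11G1153800 (At5g22810-like) lies on chromosome 11 from 14741837 to 14745276 on the minus strand. MD11G1210200 (At4g26790) lies on the same chromosome from 30759529 to 30761173 on the plus strand, and MD11G1214800 (At5g55050-like) from 31342572 to 31344627 on the minus strand. MD12G1252500 is named after LTL1, the lithium-tolerant lipase of Arabidopsis, and lies on chromosome 12 from 32163367 to 32165527 on the plus strand. MD15G1008900 is named after EXL3, an extracellular lipase, and lies on chromosome 15 from 476208 to 478535 on the minus strand. These spans are whole gene models, and exon limits were not used here.

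The study designed primers for quantitative PCR on MD00G1116600, shown because they are the only sequence of a member in the sources used here and mark its transcript. Both are printed 5′ to 3′ in lower case, with no part set off in capitals.
MD00G1116600 forward primer: ttggtggtcgacctactggg
MD00G1116600 reverse primer: gcagttgatcatcgttcggt

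At DAF60 the 8 genes split into 6 lower and 2 higher under the bag. Of these 6, MD00G1116600, MD02G1161000, MD06G1194000, MD11G1153800 and MD11G1210200 had their highest group mean in CK2. They are called the 5 CK2-high genes below, a group set after the values were seen. MD11G1214800 was highest in CK1. The 2 genes higher under the bag, MD12G1252500 and MD15G1008900, were highest in T1.

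**Figure D1:**
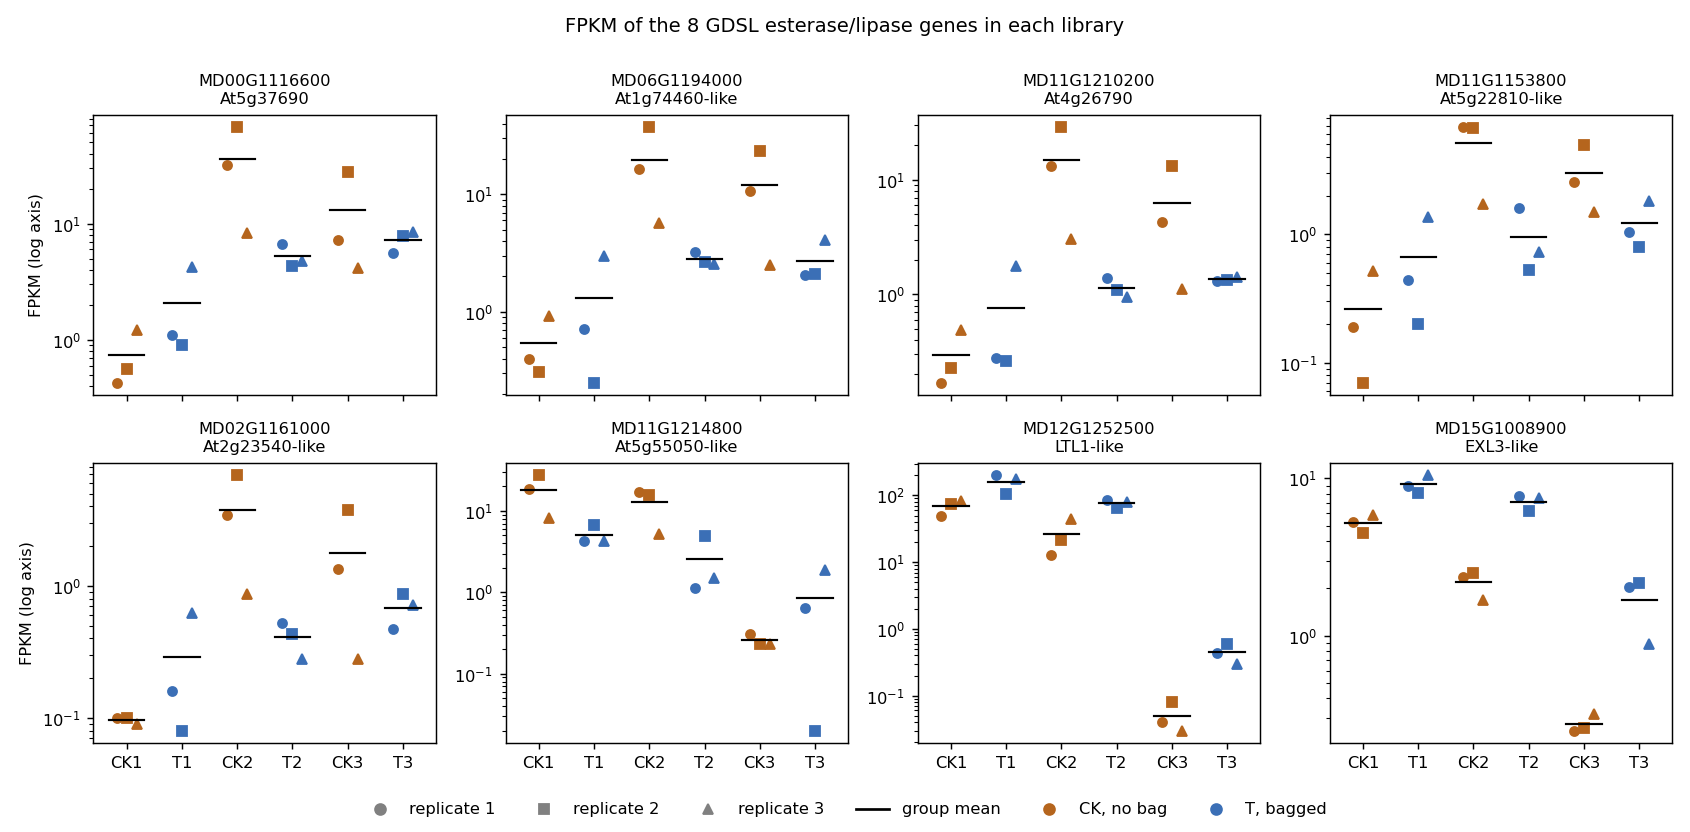
FPKM of each gene (log axis) in the 18 libraries, ordered by stage, with CK in brown and T in blue, the 3 replicates as separate symbols and the group mean as a line. The first 5 panels peak in CK2, and the LTL1-like and EXL3-like genes lie higher in T than in CK at all 3 stages.

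MD00G1116600 showed the highest level of the 5 CK2-high genes. In CK1 it read 0.43, 0.56 and 1.22 FPKM, and in CK2 32.01, 67.17 and 8.36 FPKM. In CK3 it read 7.16, 28 and 4.16 FPKM. CK1 lay below CK2 and CK3 without overlap, and the libraries of CK2 and of CK3 lay far apart. Under the bag it read 1.11, 0.91 and 4.23 FPKM in T1, 6.65, 4.29 and 4.74 FPKM in T2, and 5.58, 7.84 and 8.4 FPKM in T3. All T2 libraries lay below all CK2 libraries, while T1 overlapped CK1 and T3 overlapped CK3.

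MD06G1194000 read 0.4, 0.31 and 0.93 FPKM in CK1, 16.32, 37.19 and 5.76 FPKM in CK2, and 10.69, 23.17 and 2.48 FPKM in CK3. In T1 it read 0.71, 0.25 and 3.01 FPKM, in T2 3.21, 2.66 and 2.54 FPKM, and in T3 2.05, 2.09 and 4.05 FPKM. The lowest CK3 library lay inside the range of T3.

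MD11G1210200 read 0.17, 0.23 and 0.49 FPKM in CK1, 13.2, 28.76 and 3.03 FPKM in CK2, and 4.33, 13.26 and 1.11 FPKM in CK3. In T1 it read 0.28, 0.26 and 1.76 FPKM, in T2 1.39, 1.1 and 0.95 FPKM, and in T3 1.31, 1.33 and 1.43 FPKM. From DAF60 on, the T libraries of this gene lay close together and those of CK far apart.

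MD11G1153800 and MD02G1161000 were the weakest of the 5. MD11G1153800 read 0.19, 0.07 and 0.52 FPKM in CK1, 6.8, 6.77 and 1.72 FPKM in CK2, and 2.56, 4.98 and 1.48 FPKM in CK3, against 0.44, 0.2 and 1.36 FPKM in T1, 1.6, 0.53 and 0.73 FPKM in T2, and 1.05, 0.8 and 1.83 FPKM in T3. MD02G1161000 read 0.1, 0.1 and 0.09 FPKM in CK1, 3.44, 6.87 and 0.87 FPKM in CK2, and 1.33, 3.72 and 0.28 FPKM in CK3, against 0.16, 0.08 and 0.62 FPKM in T1, 0.52, 0.43 and 0.28 FPKM in T2, and 0.47, 0.86 and 0.71 FPKM in T3. For both, T2 lay below CK2 without overlap, and the other stages overlapped.

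MD11G1214800 followed another course. It read 18.42, 27.45 and 8.28 FPKM in CK1, 17.32, 15.64 and 5.2 FPKM in CK2, and 0.31, 0.23 and 0.23 FPKM in CK3. In T1 it read 4.32, 6.69 and 4.32 FPKM, in T2 1.14, 4.99 and 1.48 FPKM, and in T3 0.64, 0.02 and 1.89 FPKM. T lay below CK without overlap at DAF30 and DAF60, and at DAF150 both groups were low and overlapped.

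MD12G1252500, the LTL1-like gene, reached the highest level of the 8. It read 49.92, 75.68 and 83.95 FPKM in CK1, 12.85, 21.15 and 44.82 FPKM in CK2, and 0.04, 0.08 and 0.03 FPKM in CK3. Under the bag it read 200.3, 103.47 and 173.58 FPKM in T1, 86.36, 64.04 and 79.75 FPKM in T2, and 0.44, 0.6 and 0.3 FPKM in T3. Every T library lay above every CK library of its stage, and both T and CK were under 1 FPKM at DAF150. The group means ran from T1 through T2, CK1, CK2 and T3 to CK3, and of the neighbours in this order T2 and CK1 alone overlapped.

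MD15G1008900, the EXL3-like gene, had close replicates at DAF30 and DAF60, where the highest library held 1.26 to 1.48 times the lowest. It read 5.31, 4.47 and 5.9 FPKM in CK1, 2.38, 2.51 and 1.7 FPKM in CK2, and 0.25, 0.26 and 0.32 FPKM in CK3. Under the bag it read 8.97, 8.11 and 10.47 FPKM in T1, 7.76, 6.17 and 7.47 FPKM in T2, and 2.03, 2.18 and 0.89 FPKM in T3. T lay above CK at all 3 stages without overlap, which at DAF150 held for 12.7% of the genes tested. Its means ran in the same order as those of MD12G1252500, and CK2 and T3 alone overlapped among neighbours. Its whole model of 2328 bp lies inside that of MD15G1008800 on the same strand, so reads may be shared, and its level is uncertain for that reason.

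The first comparison asked what the bag changed at each stage, by limma on log2(FPKM + 1) in a model of the 6 groups, with Benjamini-Hochberg adjustment over the 1399 genes. At DAF60, MD11G1210200 showed the widest gap, with a mean of 15 ± 13 FPKM (SD, n = 3) in CK2 and 1.15 ± 0.224 FPKM in T2, 13.1-fold lower. MD02G1161000 was 9.09-fold lower in T2, MD06G1194000 7.05-fold, MD00G1116600 6.86-fold, MD11G1153800 5.35-fold and MD11G1214800 5.01-fold. MD15G1008900 was 3.25-fold higher in T2, at 7.13 ± 0.847 FPKM against 2.2 ± 0.435 FPKM in CK2, and MD12G1252500 2.92-fold higher, at 76.7 ± 11.5 FPKM against 26.3 ± 16.6 FPKM.

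All 8 passed the test at DAF60, 6 lower and 2 higher, where 61.9% of the genes tested were lower and 9.51% higher. Non-overlapping libraries were as common, with T2 below CK2 in 63.4% of the genes tested and above in 11.2%. The log2 fold changes of the 6 lower genes ran from −2.48 (SE 0.62, adjusted p = 0.0023) for MD11G1210200 to −1.52 (SE 0.43, adjusted p = 0.0054) for MD02G1161000. For MD00G1116600 the value was −2.17, for MD06G1194000 −2.12, for MD11G1214800 −1.96 and for MD11G1153800 −1.53. MD12G1252500 stood at 1.68 (SE 0.37, adjusted p = 9.3e-04) and MD15G1008900 at 1.35 (SE 0.25, adjusted p = 2.4e-04). Leaving out any single library kept 6 lower and 2 higher.

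The median log2 fold change over all genes tested at DAF60 was −1.06, so the fall of the 6 genes went along with a fall of most genes in this selected table. When each library was centred on its median, the 6 stayed below 0 but none passed (adjusted p from 0.0803 to 0.502), and the LTL1-like and EXL3-like genes moved further up, to between 2.51 and 2.84. Centring on a table chosen for its T to CK differences takes those differences out in part, and which scale is nearer to the tissue was not tested.

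**Figure D2:**
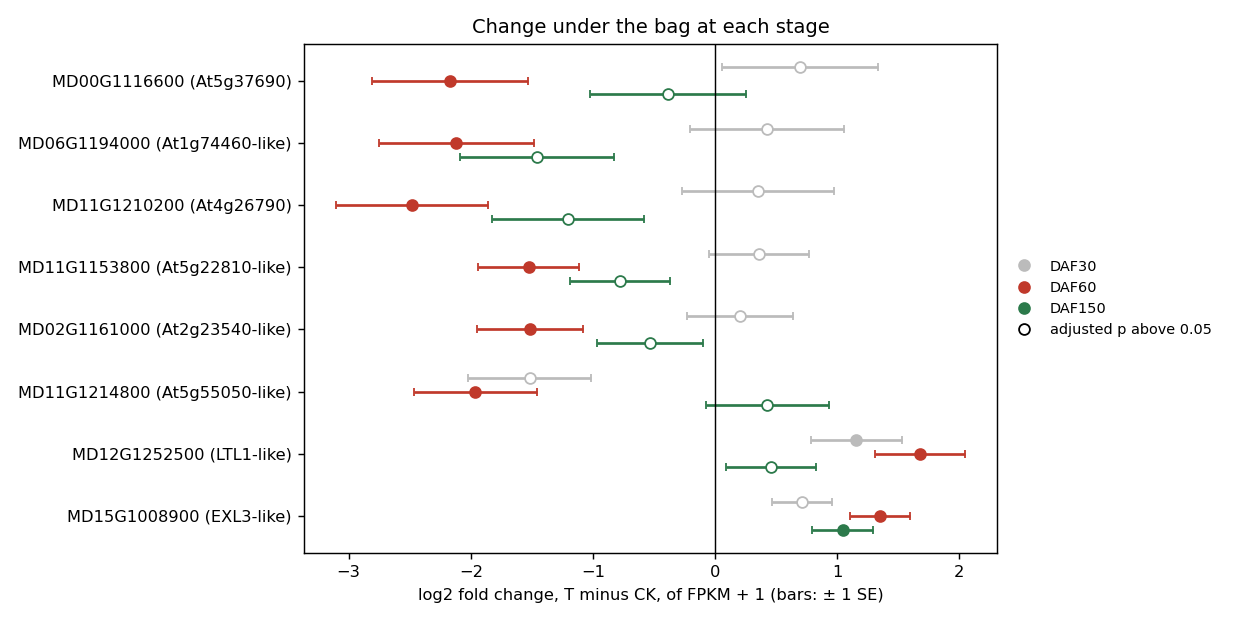
Log2 fold change of T over CK on the scale of FPKM + 1 for each gene at DAF30, DAF60 and DAF150, with 1 SE from limma. Filled points passed at an adjusted p of at most 0.05: all 8 genes at DAF60, MD12G1252500 at DAF30 and MD15G1008900 at DAF150.

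At DAF30 the 5 CK2-high genes had T1 means 2.42 to 2.97 times those of CK1, with overlapping libraries. On the log2(FPKM + 1) scale, which holds down such low values, these were log2 fold changes from 0.21 to 0.70, and none passed (adjusted p from 0.656 to 0.941). With T1 replicate 3, the highest T1 library of all 5, left out, those of MD06G1194000 and MD11G1210200 turned to −0.060 and −0.022. The others stayed positive. MD12G1252500 alone passed, at 159 FPKM in T1 against 69.9 ± 17.7 FPKM in CK1 (log2 fold change 1.16, SE 0.37, adjusted p = 0.046 by limma), where 2.07% of the genes tested were higher and 12.4% lower. This call was lost in 14 of the 18 fits that each left out 1 library, with adjusted p up to 0.203. MD15G1008900 (0.71, adjusted p = 0.065) and MD11G1214800 (−1.52, adjusted p = 0.052) fell just short of the threshold although their T1 and CK1 libraries did not overlap. MD11G1214800 was called without CK1 replicate 3, CK2 replicate 1 or 3, T2 replicate 2 or T3 replicate 3, and MD15G1008900 without T3 replicate 3. Libraries that did not overlap were seen with T1 above CK1 in 6.43% and below in 22.9% of the genes tested.

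At DAF150, MD15G1008900 alone passed, with 1.7 ± 0.705 FPKM in T3 and 0.277 ± 0.0379 FPKM in CK3 (log2 fold change 1.04, SE 0.25, adjusted p = 0.0023), where 12.6% of the genes tested were higher and 31.5% lower. None of the 8 was called lower by limma, and 1 of them, MD06G1194000, was lower at an unadjusted p under 0.05 (−1.46, adjusted p = 0.073). Without CK3 replicate 3 it was called, as was MD11G1210200 (adjusted p = 0.0057 and 0.018), and without CK2 replicate 2 or 3 it was called too. MD12G1252500 was at 0.447 FPKM in T3 and 0.05 FPKM in CK3, and on the log2(FPKM + 1) scale this difference of 0.46 did not pass (adjusted p = 0.363). With a pseudocount of 0.1 FPKM it did (adjusted p = 0.0014).

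Over the 3 stages together, 5 genes were lower and 2 higher under the bag, where 75.1% of the genes tested were lower and 15.4% higher. None of the 5 lower calls held after median centring (adjusted p from 0.287 to 0.975), where MD02G1161000 turned to 0.0131, or after quantile normalization (lowest adjusted p 0.270), while both higher calls did. The gene left over was MD00G1116600 (−0.62, SE 0.37, adjusted p = 0.117). As in all 5 CK2-high genes, its change at DAF30 had the opposite sign to that at DAF60. Without CK2 replicate 3 or CK3 replicate 3 it passed (adjusted p = 0.017 and 0.048), and MD02G1161000 did not pass when T3 replicate 1, T1 replicate 2, CK3 replicate 2 or either of CK2 replicates 1 and 2 was left out. MD12G1252500 (1.1, SE 0.21) and MD15G1008900 (1.03, SE 0.14) were higher, with adjusted p of 3.2e-04 and 2.0e-05.

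The next comparison asked whether the change under the bag itself differed between stages. From DAF30 to DAF60 it became more negative in 5 of the 8 members, those highest in CK2, by 1.73 to 2.86 on the log2 scale (adjusted p from 0.018 to 0.033), where 37.2% of the genes tested shifted this way and 6.15% the other. CK2 enters this difference and the 5 were grouped by their CK2 level, so the match with that group is a description. MD11G1214800 (−0.45), MD12G1252500 (0.52) and MD15G1008900 (0.64) did not pass. The shift of the 5 genes stayed negative but did not pass after median centring (adjusted p from 0.0768 to 0.267) or quantile normalization (from 0.135 to 0.298), and 2 of them passed without CK2 replicate 2 or without T1 replicate 3. Without CK1 replicate 1 or 2, CK2 replicate 1, or T2 replicate 2 or 3, 3 passed. From DAF60 to DAF150 the change of MD11G1214800 alone differed, by 2.39 (SE 0.71, adjusted p = 0.028), where 14.2% of the genes tested shifted upwards and 5.15% downwards. This call was lost after median centring (1.70, adjusted p = 0.0879) and quantile normalization (1.41, adjusted p = 0.213). There MD12G1252500 was called downwards under both (adjusted p = 0.0350 and 0.0492) and MD15G1008900 after quantile normalization (adjusted p = 0.0292). It was also lost without CK2 replicate 1, T2 replicate 1 or 3, or T3 replicate 1 or 3 (adjusted p up to 0.0705). Without CK2 replicate 3 MD00G1116600 and MD02G1161000 passed as well and MD12G1252500 passed downwards, and without CK3 replicate 2 MD00G1116600 did. At DAF150 MD11G1214800 was at 0.257 FPKM in CK3 and 0.85 ± 0.953 FPKM in T3.

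The next question was how the genes moved with stage in unbagged skin. From DAF30 to DAF60, 5 of the 8 members rose and 2 fell, where 31.3% of the genes tested rose and 13.5% fell. The 5 are the CK2-high genes, so a higher level in CK2 than in CK1 restates how they were grouped and is a description. The CK2 values also entered the selection of the table, and MD02G1161000 passed the minimum of 1 FPKM through CK2 and CK3 libraries alone. MD00G1116600 rose 48.7-fold, with 0.737 ± 0.424 FPKM in CK1 and 35.8 ± 29.6 FPKM in CK2 (log2 fold change 4.02, SE 0.64, adjusted p = 1.7e-04). MD06G1194000 rose 36.1-fold and MD11G1210200 50.6-fold, with log2 fold changes of 3.43 and 3.21. MD11G1153800 rose 19.6-fold (2.14) and MD02G1161000 38.6-fold (1.88), and the log2 values of such low genes are held down by the pseudocount of 1 FPKM. All 3 CK2 libraries of each lay above all 3 CK1 libraries, as they did in 36.7% of the genes tested, and those of the 2 genes that fell lay below, as in 15.2%.

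In the same interval MD12G1252500 fell 2.66-fold in CK, to 26.3 FPKM in CK2 (−1.52 on the log2 scale, adjusted p = 0.0032), and MD15G1008900 2.38-fold (−0.96, adjusted p = 0.0046). MD11G1214800 stood at 18.1 ± 9.59 FPKM in CK1 and 12.7 ± 6.57 FPKM in CK2 and did not pass. The median of all genes tested was 0.25 in this interval.

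In CK from DAF60 to DAF150, MD12G1252500 fell 525-fold, to 0.05 ± 0.0265 FPKM (log2 fold change −4.52, adjusted p = 8.1e-08). MD11G1214800 fell 49.6-fold, to 0.257 ± 0.0462 FPKM (−3.30, adjusted p = 4.0e-05), and MD15G1008900 7.94-fold (−1.32, adjusted p = 2.6e-04). Those were the 3 of 8 that passed, where 39.7% of the genes tested fell and 17.7% rose. The 5 CK2-high genes had CK2 means 1.63 to 2.73 times those of CK3, with overlapping libraries, and did not pass (adjusted p from 0.0771 to 0.342). Without CK2 replicate 3, 7 of the 8 genes passed as falls, and without CK3 replicate 2, 6 did.

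Bagged skin from DAF30 to DAF60 showed no change in the 8 genes that passed in limma, where 21.2% of the genes tested fell and 5.86% rose. At an unadjusted p under 0.05 there was 1, MD12G1252500, at 76.7 FPKM in T2 against 159 FPKM in T1 (log2 fold change −1.0, SE 0.37, adjusted p = 0.054). It was called when T1 replicate 2, CK1 replicate 1 or either of CK2 replicates 1 and 3 was left out. Of the 5 CK2-high genes, MD00G1116600 had all T2 libraries above all T1 libraries (1.15, adjusted p = 0.201), as in 12.7% of the genes tested, and the others overlapped. From DAF60 to DAF150, MD12G1252500 fell 172-fold in T, to 0.447 ± 0.15 FPKM (−5.74, adjusted p = 5.1e-09), and MD15G1008900 4.2-fold (−1.62, adjusted p = 6.7e-05), where 16.2% of the genes tested fell and 18.2% rose. The fall of the LTL1-like and EXL3-like genes from DAF60 to DAF150 was thus seen with and without the bag on the deposited scale. In CK the fall of the EXL3-like gene shrank to −0.65 after median centring (adjusted p = 0.042 by limma). After quantile normalization it was −0.60 and did not pass (adjusted p = 0.064).

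The libraries of CK2 and of CK3 differed widely in the 5 CK2-high genes, and they differed in the same way. In CK2 the highest library held 9.49 times the FPKM of the lowest for MD11G1210200, 8.03 times for MD00G1116600, 7.9 times for MD02G1161000, 6.46 times for MD06G1194000 and 3.95 times for MD11G1153800. In CK3 the ratios were 11.9, 6.73, 13.3, 9.34 and 3.36 in the same order of genes. Replicate 3 was the lowest library in all 5 genes in both groups, against 43.4% of the genes tested in CK2 and 48.3% in CK3.

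Of the 5 genes, 4 had replicate 2 highest, then 1, then 3 in CK2, an order shared by 18.1% of the genes tested. MD11G1153800 was the exception, with 6.8 FPKM in replicate 1 and 6.77 FPKM in replicate 2. In CK3 all 5 had this order, against 28.0% of the genes tested. Having it in both groups were 4 of the 8 members and 9.86% of the genes tested. Whether libraries of CK2 and CK3 with the same number came from the same tree is not known.

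The gap between replicates 2 and 3 had a median of 2.50 on the log2(FPKM + 1) scale over the 5 genes in CK2 (range 1.51 to 2.88), where the median of all genes tested was 0. In CK3 it was 2.49 (range 1.27 to 2.80), where all genes tested had a median of 0.21. A gap above 0 was seen in 47.9% of the genes tested in CK2 and in 67.3% in CK3. MD11G1214800 had a gap of 1.42 in CK2, close to the 1.51 of MD11G1153800. MD12G1252500 went the other way in CK2, where replicate 3 was highest with 44.82 FPKM and the gap was −1.05, and MD15G1008900 had a small gap of 0.38.

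Under the bag the spread was narrower at the later stages. In T2 the highest library of the 5 genes held between 1.26 and 3.02 times the lowest, and in T3 between 1.09 and 2.29 times. In T1 the ratios were larger, from 4.65 to 12, and replicate 3 was the highest library in all 5 genes, as it was in 35.3% of the genes tested. These T1 values were low, from 0.08 to 4.23 FPKM.

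**Figure D3:**
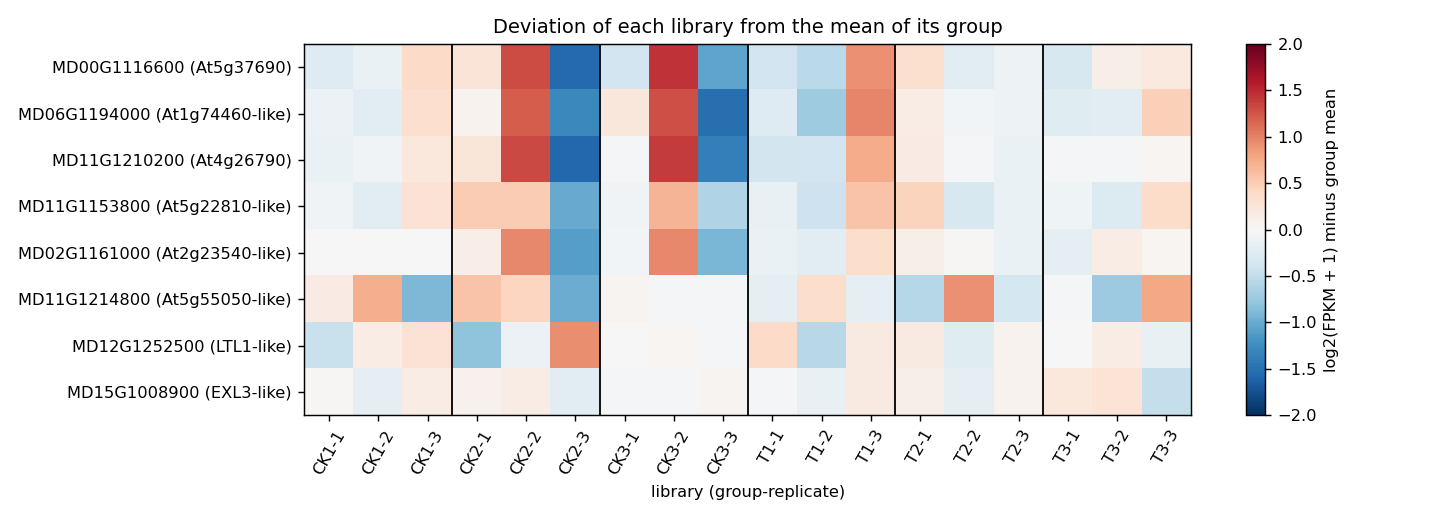
Each cell gives log2(FPKM + 1) of a gene (row) in a library (column) minus the mean of its group of 3. The first 5 rows are red in replicate 2 and blue in replicate 3 of CK2 and of CK3, with the exceptions named in the text, while MD12G1252500 is red in replicate 3 of CK2.

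Across the 18 libraries, Pearson's r of log2(FPKM + 1) between the 5 CK2-high genes ran from 0.936 to 0.989 over their 10 pairs. The 5 were grouped by a shared CK2 peak, so a high r over the 18 libraries is in part built in. With the group means taken out r ran from 0.835 to 0.983, and the r of all gene pairs was not taken as a background. These values describe 18 libraries that share groups and library preparations, and no test was attached. MD12G1252500 and MD15G1008900 had an r of 0.911 with each other over the 18 libraries and −0.0094 with group means taken out, so they shared the course over groups and not the spread within them. The 5 genes had r from −0.559 to −0.354 with these 2, and from −0.191 to 0.016 with MD11G1214800.

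The genes nearest to each member over the 18 libraries, by the same r, fell into unlike sets. For MD00G1116600 they were a FLO11-like protein gene (MD13G1196300, 0.978), a non-specific lipid-transfer protein gene (MD11G1282200, 0.974) and a gene for glycerol-3-phosphate acyltransferase 5, an enzyme of suberin monomer assembly in Arabidopsis (MD01G1136800, 0.972). For MD02G1161000 they were a blue copper protein gene (MD09G1104100, 0.990), the member MD11G1210200 (0.989) and the transporter gene ABCG23 (MD11G1185400, 0.986). For MD06G1194000 they were peroxidase 11 (MD13G1053000, 0.989), an omega-hydroxypalmitate O-feruloyl transferase gene, whose enzyme adds ferulate to suberin monomers (MD09G1007600, 0.987), and ABCG20 (MD04G1116300, 0.985).

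For MD11G1153800 the nearest were 2 feruloyl transferase genes (MD09G1007600, 0.975, and MD17G1011500, 0.972) and the GDSL gene MD14G1201200 (0.971). For MD11G1210200 they were ABCG32 (MD15G1145300, 0.995), MD14G1201200 (0.995) and CYP86A1, the fatty acid omega-hydroxylase of root suberin in Arabidopsis (MD03G1073600, 0.991). Of the 3 genes nearest to each of these 5 members, 1 or 2 were on the list of suberin, cutin and wax genes. That list holds 28 of the 1399 genes tested and counts every ABC transporter G family gene. MD09G1007600 and MD14G1201200 recur between members, so these counts are not independent, and no test was attached.

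None of the genes nearest to the other 3 members was on that list. MD12G1252500 lay nearest to an omega-3 desaturase gene (MD11G1072500, 0.988), to protodermal factor 1, a marker of the epidermis (MD05G1116900, 0.979), and to laccase-15 (MD01G1235100, 0.979). MD15G1008900 lay nearest to another omega-3 desaturase gene (MD03G1067900, 0.970), to a gene like WIN1, a regulator of cuticle formation in Arabidopsis (MD02G1030900, 0.957), and to the ubiquitin ligase gene RHA2A (MD01G1228600, 0.947). MD11G1214800 lay nearest to a calcium-transporting ATPase gene (MD17G1146100, 0.945), a HARBI1-like nuclease gene (MD15G1055200, 0.917) and a HAL2-like phosphatase gene (MD03G1221700, 0.915).

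Of the 13 other GDSL genes in the table, 8 reached the minimum and were tested. At DAF60, 5 were lower under the bag, 2 higher and 1 did not pass, with a median log2 fold change of −0.89 against −1.06 for all genes tested, of which 61.9% were lower and 9.51% higher. In CK from DAF30 to DAF60, 5 rose and 3 fell, with a median of 1.06 against 0.25 for all genes tested. Of the latter, 31.3% rose and 13.5% fell. The 5 that rose were the 5 lower under the bag, and all reached 1 FPKM in CK2 and CK3 libraries alone. They entered the test through the groups where they are high, so both counts are a description. The 2 that were lowest under the bag over the 3 stages were MD14G1201200 (At1g74460-like, −0.79) and MD15G1275100 (At2g23540, −0.71). The 2 highest were MD04G1234500 (0.55), named after At5g33370, which groups with the cutin synthases, and MD09G1148500 (At2g42990, 0.50).

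Of the members with a gene of the same name in the table, 3 moved with it at DAF60. The 3 partners reached 1 FPKM in CK2 and CK3 libraries alone, so their lower level in T2 is a description and no support. MD14G1201200, the partner of MD06G1194000, had a mean of 4.97 ± 3.47 FPKM in CK2 and 0.653 ± 0.146 FPKM in T2. MD15G1275100, the partner of MD02G1161000, had 5.07 ± 3.88 FPKM in CK2 and 0.563 ± 0.115 FPKM in T2. MD09G1274700, the partner of MD00G1116600, stood at 1.55 ± 1.24 FPKM in CK2, far below the 35.8 FPKM of the member. All 3 had replicate 2 highest and replicate 3 lowest in CK2 and in CK3, as the members and 9.86% of the genes tested did. Reads of such similar genes may have been split between them.

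There were exceptions. MD03G1198800 shares the At5g55050 name with MD11G1214800 and was higher under the bag at DAF30, at 11.84, 7.62 and 12.05 FPKM in T1 against 5.18, 3.09 and 4.76 FPKM in CK1 (log2 fold change 1.1, adjusted p = 0.0078), where the member stood at 5.11 FPKM in T1 and 18.1 FPKM in CK1. Near MD15G1008900 lie MD15G1008800, which encloses it, and MD15G1009100, both EXL3-like and both lower under the bag at DAF60 (−1.32 and −0.68, adjusted p = 0.0020 and 0.027). Both reached 1 FPKM in CK2 and CK3 libraries alone, so this too is a description. MD15G1008800 had 2.53 ± 1.46 FPKM in CK2 and 0.337 ± 0.338 FPKM in T2, so the enclosing model went against the enclosed member. Another EXL3-like gene, MD08G1009700, was too low to be tested, with a mean of 0.427 FPKM in T1 and 0.2 FPKM in CK1.

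The list of suberin, cutin and wax genes was taken from words in the descriptions and holds 41 genes, of which 28 were tested. It takes in every gene described as an ABC transporter G family member, whatever it carries. Not all of its genes need therefore act on these polymers. At DAF60, 26 of them were lower under the bag and 2 higher, with a median of −1.90 against −1.06 over all genes tested, of which 61.9% were lower and 9.51% higher. In CK from DAF30 to DAF60, 22 rose and 1 fell, with a median of 1.94 against 0.25 for all genes tested, of which 31.3% rose and 13.5% fell. These list counts were made on the deposited scale alone, and at least MD05G1065300 reached 1 FPKM through CK2 and CK3 libraries alone. Lowest over the 3 stages were MD07G1187400 (a 3-ketoacyl-CoA synthase 19 gene of fatty acid elongation, −1.31) and MD02G1104100 (a gene like the wax ester synthase WSD1, −1.30). Highest were MD01G1064900 (CYP86A8, 0.98) and MD09G1193200 (HOTHEAD, 0.58), both tied to cutin in Arabidopsis. The gap between replicates 2 and 3 was above 0 in 23 of the 28 in CK2 and in 27 in CK3, with medians of 1.79 and 1.48. Of all genes tested, 47.9% in CK2 and 67.3% in CK3 had a gap above 0.

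**Figure D4:**
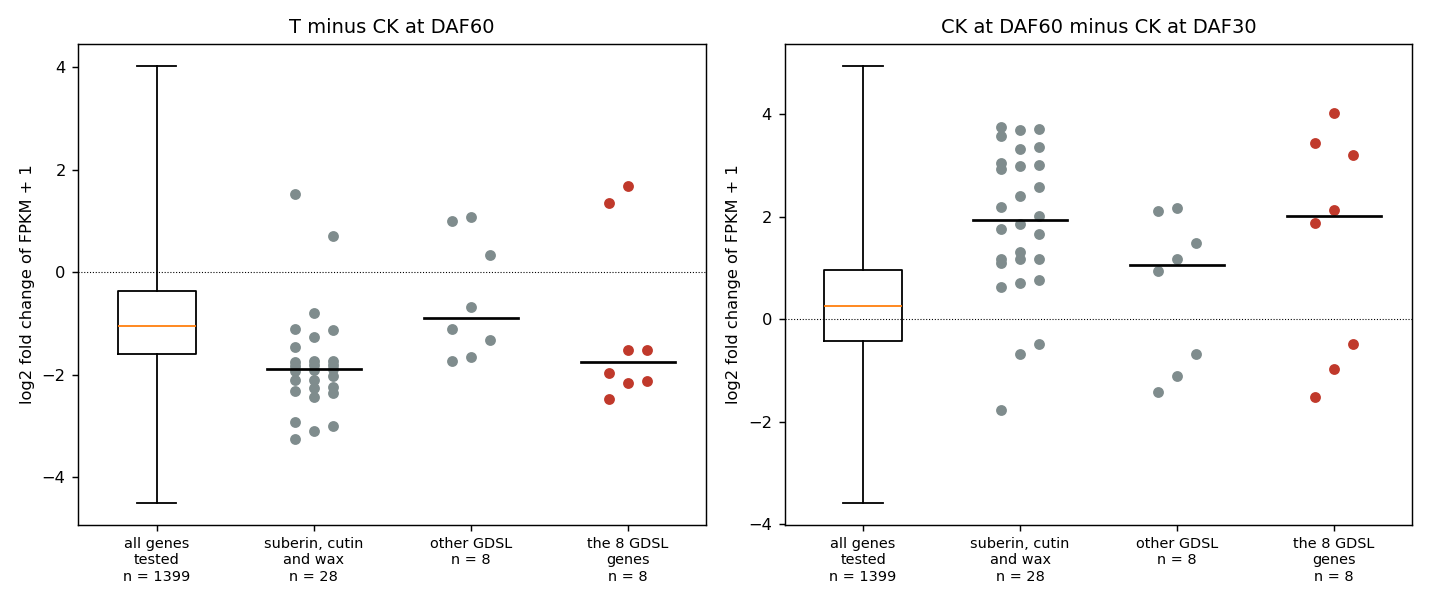
Log2 fold changes on the scale of FPKM + 1 for T minus CK at DAF60 (left) and for CK at DAF60 minus CK at DAF30 (right), over all 1399 genes tested (box with quartiles and whiskers to the extremes), 28 suberin, cutin and wax genes, 8 other GDSL genes and the 8 members (points, with the median as a line). The members lie on both sides of 0, with 6 below it on the left. Both panels use CK2, so they are not independent.

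Markers of other tissue also differed between these groups, though unevenly. At DAF60, 9 of the 10 chlorophyll-related genes tested were lower under the bag, with a median log2 fold change of −1.73 against −1.06 over all genes tested, of which 61.9% were lower and 9.51% higher. Of the 15 vascular and secondary wall genes tested, 5 were lower, 1 higher and 9 did not pass, with a median of −0.15, so the sums of this list follow a minority of its genes. The 11 chlorophyll-related genes summed to between 466.74 and 1030.53 FPKM in CK2 and between 147.05 and 180.84 FPKM in T2. The 25 vascular and secondary wall genes summed to between 30.66 and 87.47 FPKM in CK2 and between 10.55 and 13.8 FPKM in T2, and in T3 to between 38.32 and 213.9 FPKM. In CK2 and CK3 the vascular sum had replicate 2 highest, then 1, then 3, with 67.53, 87.47 and 30.66 FPKM in CK2 and 51.21, 72.68 and 18.56 FPKM in CK3. Of the 5 CK2-high genes, 4 had this order in CK2 and all 5 in CK3, against 18.1% and 28.0% of the genes tested. The suberin, cutin and wax sum had it in CK3 alone, with 680.01, 678 and 346.41 FPKM in CK2 and 196.97, 353.85 and 139.52 FPKM in CK3. Its CK2 sum leans on MD07G1187400 (mean 217 FPKM in CK2). The model of that gene lies inside that of MD07G1187000 (70.1 FPKM), so reads may be shared. Gene by gene, 20 of the 28 list genes tested had replicate 2 above replicate 1 in CK2, against 32.2% of all genes tested. The chlorophyll sum had it in neither, with 1030.53, 743.6 and 466.74 FPKM in CK2 and 859.18, 1065.14 and 1000.13 FPKM in CK3. Of the 11 chlorophyll-related genes, 0 were at 0 in all 3 libraries of CK2 and of CK3, and 1 was in each of the other groups. Of the 25 vascular genes, 1 was at 0 throughout CK2 and 4 throughout T2. The 41 suberin, cutin and wax genes summed to between 346.41 and 680.01 FPKM in CK2 and between 77.64 and 93.05 FPKM in T2. The part of these tissues in the results was not tested. In mixed peel, fewer cells of a kind and less RNA per cell cannot be told apart.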

How the data were processed

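The authors sequenced mixed fruit peel on the BGISEQ-500 platform, used Bowtie2 against the GDDH13 v1.1 genome and its genes, and deposited FPKM per gene and library, rounded to 2 decimals. For tool versions, fragment counting and strandedness, nothing was given in the sources used here. The log2 ratios, p-values and q-values that the authors deposited for their own T to CK comparisons served only to see that every gene in the table had passed the one between all T and all CK libraries, which makes this a selected set. Fragment totals per library are unknown, which leaves the counting error of a value unknown.

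Members and gene lists were chosen with earlier results of these data known. Values were taken as log2(FPKM + 1). Genes reaching 1 FPKM in 3 or more libraries entered limma 3.58.1 (statmod 1.5.0, R 4.3.3), in a model of the 6 groups with 12 residual degrees of freedom, trend and robust moderation. Calls were made at an adjusted p (Benjamini-Hochberg) of 0.05 or less. The study used 3 trees per group as replicates, and libraries were treated as independent. The procedure was run on simulated data with independent noise and changes balanced between both directions. This table is unlike that, so the run does not vouch for the calls here. Alternatives were pseudocounts of 0.1 and 0.5 FPKM, other filters, scalings, moderation and sets of libraries, and a replicate block. Named genes are the 8 members, the 2 largest and 2 smallest changes over the stages in the GDSL and suberin lists, and the 3 described genes nearest to each member by r. Genes sharing a member's name or position were named after their values were seen. Figures used matplotlib 3.10.9 in Python 3.11.15.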

Additional observations from a re-analysis of the deposited data

Results flagged for a closer look

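In 6 cases the change under the bag differed between stages by limma's test of the difference itself. From DAF30 to DAF60 the log2 fold change of T over CK shifted by −2.86 in MD00G1116600 (SE 0.90, adjusted p = 0.020), by −2.83 in MD11G1210200 (SE 0.88, adjusted p = 0.019) and by −2.54 in MD06G1194000 (SE 0.89, adjusted p = 0.031). It shifted by −1.89 in MD11G1153800 (SE 0.58, adjusted p = 0.018) and by −1.73 in MD02G1161000 (SE 0.61, adjusted p = 0.033). All 5 are the genes with their highest level in CK2. In T1, replicate 3 was the highest library of each. Their T1 means were 2.42 to 2.97 times those of CK1, with overlapping libraries, while T2 lay below CK2. A high CK2 level pushes this difference down, so the match with that group partly restates how it was set. Over all genes tested, 37.2% shifted downwards in this interval. From DAF60 to DAF150 the change of MD11G1214800 shifted by 2.39 (SE 0.71, adjusted p = 0.028), from 5.01-fold lower under the bag to overlapping low values, where 14.2% of all genes tested shifted upwards. None of the 6 calls held after median centring or quantile normalization. Groups of 3 libraries are too small to test for a single library that stands apart.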

How the results depend on the processing

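Counts of members called per comparison were refitted under the alternatives. For T against CK at DAF30, where 1 was higher and 0 lower, the number higher was 0 with a pseudocount of 0.1 or 0.5 FPKM, with no filter, with only the libraries of the comparison, and without both CK2 replicate 2 and CK3 replicate 2. It was 2 after median centring, quantile normalization or plain moderation, and with a minimum of 5 FPKM 1 member was lower. At DAF60 the number lower was 0 after median centring and after quantile normalization, instead of 6. Over all 1399 genes the lower calls went from 866 to 156 and 216, and the higher calls from 133 to 331 and 214. At DAF150 the number higher was 2 with a pseudocount of 0.1 FPKM and with only the libraries of the comparison. Over the 3 stages the number lower, 5, was 3 with a pseudocount of 0.1 FPKM or a minimum of 5 FPKM, 2 without both CK2 replicate 2 and CK3 replicate 2, and 0 under both scalings, where MD02G1161000 reversed to 0.0131 on the log2 scale after median centring (adjusted p = 0.975). The shift from DAF30 to DAF60 was lower in 3 members, not 5, with no filter or a minimum of 5 FPKM, and under both scalings lower in 0 and higher in 1. The shift from DAF60 to DAF150, higher in 1, was higher in 0 with a pseudocount of 0.1 FPKM, under both scalings and without both replicates 2, and lower in 1 after centring and in 2 after quantile normalization. In CK from DAF30 to DAF60 the rises were 3, not 5, with a minimum of 5 FPKM, which leaves out MD02G1161000 and MD11G1153800 and tests 736 genes. In T from DAF30 to DAF60, 1 member was lower, not 0, with a minimum of 5 FPKM, with plain moderation and with only the libraries of the comparison. The comparison over the stages needs all groups, so it has no value with a subset of libraries. Apart from these constructions the cause was not tested.

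With 1 library left out in turn, members lower numbered 0 to 1 and higher 0 to 1 at DAF30, 6 and 2 throughout at DAF60, 0 to 2 and 1 at DAF150, and 4 to 6 and 2 over the stages. For the shift from DAF30 to DAF60, 2 to 5 were lower, and from DAF60 to DAF150 0 to 1 were lower and 0 to 3 higher. In CK from DAF60 to DAF150, 3 to 7 fell, and in T from DAF30 to DAF60, 0 to 1. The other counts did not move.

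Same-numbered T and CK libraries deviated from their group means with correlations from −0.35 to 0.17, so the numbers were not taken as pairs. Between stages of CK or of T the correlations ran from −0.20 to 0.39, with 0.26 and 0.39 for replicates 2 and 3 of CK2 and CK3. A fit with a replicate block gave the same counts, with 6 members lower and 2 higher at DAF60. Replicates 2, 1 and 3 kept their order in both CK2 and CK3 in 4 members, and in 5 after median centring. Depth per value is unknown, and the many values under 1 FPKM limit what can be said of CK1 for the 5 genes and of DAF150 for the LTL1-like gene.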
